A study of Mus musculus with 6 samples.

Results

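Hoxa9, Meis1, Msi2 and Mycn are 4 genes known for the self-renewal of blood stem and progenitor cells and of leukaemia cells, and they were followed here through every transcript row that the deposited table gives for them. They were taken by gene symbol: Hoxa9, Meis1 and Msi2 have 1 row each and Mycn has 2, which makes 5 of 3022 transcript rows and 4 of 2744 genes. The assay was PRO-seq, in which engaged RNA polymerases in isolated nuclei add biotin-labelled nucleotides to the RNA they are making, so that a read marks a transcribing polymerase. The cells were cKIT+ bone marrow progenitors of female C57/BL6 mice carrying Mllt3 flox/flox and Rosa26Cre+, in which tamoxifen switches on the deletion of the animals' own Mllt3. The WT group (3 libraries) was transduced with MLLT3 WT and the DM group (3 libraries) with MLLT3 K63E K67E. Both groups were sorted and then grown for 8 days in methylcellulose with cytokines and 200 nM 4-hydroxytamoxifen. The treatment that deletes endogenous Mllt3 was thus common to both, but the extent of the deletion was not measured here. All 6 libraries belong to batch 1. The labels do not say how many animals were used or whether replicates were separate cultures, so p-values measure the spread between these libraries, which may be technical.

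MLLT3, also called AF9, reads acylated histones through its YEATS domain and recruits elongation factors and DOT1L to genes. Fusions of MLL with MLLT3 and other partners drive leukaemias in which Hoxa9 and Meis1 are hallmark targets. Hoxa9 encodes a homeodomain transcription factor and Meis1 its TALE-class DNA-binding partner, Msi2 encodes an RNA-binding protein that controls translation in stem cells, and Mycn encodes the MYC-family factor N-MYC, which binds DNA together with MAX. The comparison asks how polymerase on these genes differs between cells transduced with mutant and with wild-type MLLT3.

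For each transcript the authors counted reads in a head window, from 30 bp before to 300 bp after the transcript's start, where polymerase pauses, and in the body, which is the rest of the transcript with its introns. RPM values below are these counts over the deposited library total, scaled to 1e+06 reads, and RPKM values are divided by window length in kilobases too. Library totals ran from 15112853 reads in WT replicate 2 to 22981603 in WT replicate 1. WT replicate 2 stood apart: it held 23.7 head reads per 100 body reads over all genes, against 12.7 to 14.9 in the other 5 libraries. Kit, the receptor by which the cells were selected, was present in every library, with 1266 ± 259 body RPM in WT against 657 ± 8.53 in DM (SD, n = 3 libraries). The Mllt3 locus still gave 84.4 ± 9.62 body RPM in WT and 60.1 ± 2.50 in DM, a fitted log2 change of -0.49 (SE 0.11). The cause of this difference was not tested. Which exons are floxed is not given in the sources used here, and both groups received tamoxifen, so these reads do not check which construct a library holds. Nor do they measure how far the deletion went in either group. All rows analysed here had passed the authors' own test of body counts. As inferred from the deposited p-values and their adjusted values, that test covered 13629 rows and called 3090 (22.7%), against 3022 rows held. Because that test selected the rows, the body differences of the 4 genes are a description of selected rows. Head counts did not enter that choice, though they come from the same libraries.

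Scaled to library size, all 5 rows had fewer body reads in every DM library than in any WT library. Body RPM in DM was 10.1% of WT for Hoxa9, 45.0% for Meis1, 62.9% for Msi2, and 40.8% and 42.0% for the Mycn transcripts. Such separation of the libraries, with DM below, was found in 38.3% of all rows. In these bulk samples, fewer cells transcribing a gene and fewer polymerases per cell cannot be told apart.

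**Figure D1:**
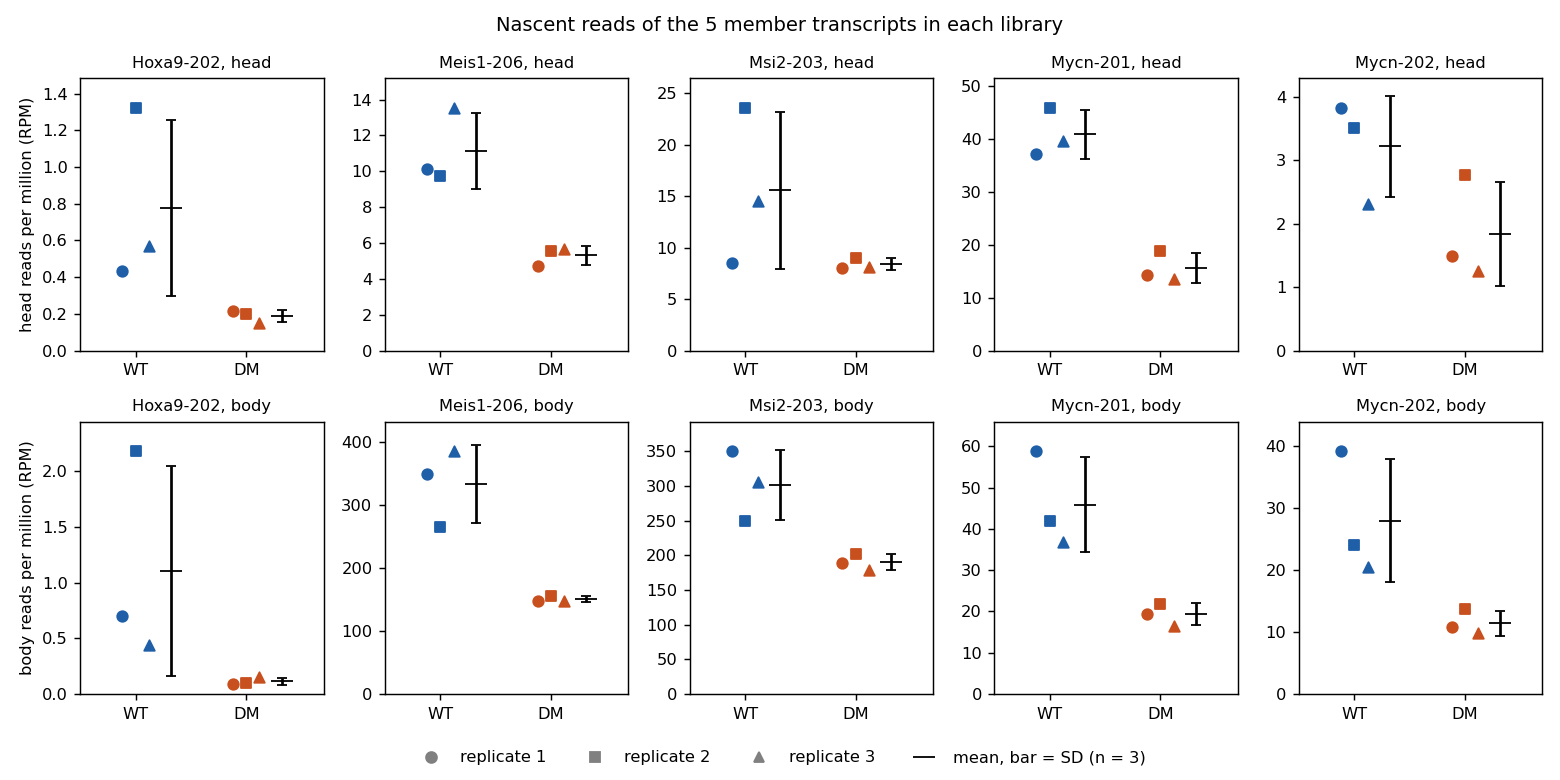
Head (top) and body (bottom) RPM of each member transcript, 1 point per library, with the group mean and SD (n = 3) beside the points. Body points of DM lie below those of WT in all 5 panels, while head points overlap between groups for Msi2-203 and Mycn-202.

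Hoxa9 was represented by Hoxa9-202 (ENSMUSG00000038227.15), on the minus strand of chromosome 6 from 52223100 to 52226189. The row begins 1181 bp downstream of the start that RefSeq (GRCm38.p6) lists for the gene, so its head window lies inside the gene and is not the window of that start. WT replicates 1 to 3 gave 16, 33 and 10 body reads, whereas DM replicates 1 to 3 gave 2, 2 and 3; counts below keep this order. The DM counts were all below the lowest WT count, and WT replicate 2 gave 33 of the 59 WT reads. Pooled over the libraries and scaled to their totals, 7 DM reads against 59 WT reads amount to 11.5% of WT, with an exact 95% interval from 4.42% to 25.2% that covers counting error only.

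The Hoxa9 head held 10, 20 and 13 reads across WT against 5, 4 and 3 across DM. The groups did not overlap in RPM either, and WT replicate 2 was again highest. Pooled in the same way, 12 DM against 43 WT head reads are 27.0% of WT, with an exact interval from 13.0% to 52.1%. Counts this low did not pass edgeR's filter on low counts. Fitted with no filter, the body log2 change was -3.21 (SE 0.83), and the head log2 change was -1.95 (SE 0.66), with an adjusted p of 0.054 by edgeR's quasi-likelihood test, which missed the threshold of 0.05. Under that unfiltered fit 10.0% of all rows were lower in heads and 42.5% in bodies. Without WT replicate 2 the head log2 change was -1.38 (adjusted p 0.17) and the body log2 change -2.29 (SE 0.74). Without WT replicate 1 the head log2 change was -2.22 (adjusted p 0.012 by edgeR) and passed, as it did with TMM scaling (-1.80, adjusted p 0.040).

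Meis1 was represented by Meis1-206 (ENSMUSG00000020160.18), on the minus strand of chromosome 11 from 18879817 to 19018985, with a body of 138867 bp. The row starts 16 bp upstream of the start listed by RefSeq, and 666 bp inside the whole span that RefSeq gives the gene. Its body held 8034, 4017 and 8839 reads across WT against 3359, 3151 and 2951 across DM. Scaled to library size these are 350, 266 and 386 RPM for WT against 147, 156 and 148 RPM for DM. The DM libraries lay close together and under the lowest WT library. The fitted body log2 change was -1.15 (SE 0.14).

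The Meis1 head held 233, 147 and 310 reads across WT against 108, 112 and 113 across DM, or 11.1 ± 2.10 and 5.31 ± 0.505 RPM (SD, n = 3 each). WT replicate 3 was the highest, and no DM library reached a WT library. The head log2 change was -1.07 (SE 0.26; adjusted p 0.013 by edgeR's quasi-likelihood test). The head thus stood at 47.7% of WT, near the body's 45.0%. The call did not hold without WT replicate 3 (log2 change -0.90, adjusted p 0.053), DM replicate 1 (-0.99, 0.094), DM replicate 2 (-1.10, 0.057) or DM replicate 3 (-1.12, 0.070).

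Msi2 was represented by Msi2-203 (ENSMUSG00000069769.13), on the minus strand of chromosome 11 from 88339382 to 88718229. Its body of 378546 bp is the longest among the 5 rows, and its start matches a RefSeq start. Msi2-203 held 8059, 3773 and 6981 body reads across WT against 4313, 4078 and 3581 across DM. In RPM these are 351, 250 and 305 for WT against 189, 202 and 179 for DM. WT replicate 2 was the lowest of its group and still lay above the highest DM library. The fitted body log2 change was -0.67 (SE 0.13), the smallest drop among the 5 rows.

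The head of Msi2 behaved less evenly across WT libraries. It held 196, 357 and 333 reads across WT against 184, 183 and 163 across DM, which are 8.53, 23.6 and 14.6 RPM for WT against 8.06, 9.05 and 8.16 RPM for DM. WT replicate 1 fell within the range of the DM libraries, and replicate 2, the library rich in head reads over all genes, was the highest. The head log2 change was -0.88 (SE 0.32) and missed the threshold (adjusted p 0.063 by edgeR's quasi-likelihood test). It was -0.45 without WT replicate 2 (adjusted p 0.13), and it passed without WT replicate 1 (-1.17, adjusted p 0.0025), with TMM scaling (-0.73, adjusted p 0.0097) and with DESeq2 (-0.73, adjusted p 0.0047).

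Mycn has a pair of rows that share their 3′ end on the minus strand of chromosome 12. Mycn-201 (ENSMUSG00000037169.15) runs from 12936093 to 12941914 and starts 78 bp upstream of the RefSeq start. Mycn-202 runs from 12936093 to 12940616, starts 1220 bp downstream of it, and lies wholly inside Mycn-201. The reads of Mycn-202 are therefore also reads of the Mycn-201 body, and the rows are not independent. The head of Mycn-201 held 852, 694 and 906 reads across WT against 328, 381 and 271 across DM. In RPM the WT libraries lay between 37.1 and 45.9 and the DM libraries between 13.6 and 18.8, far apart relative to the spread within each group. The head log2 change was -1.39 (SE 0.25; adjusted p 0.0050 by edgeR's quasi-likelihood test), and 3.13% of the rows tested had a lower value. Without DM replicate 1 it was -1.33, with an adjusted p of 0.053.

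The Mycn-201 body held 1354, 633 and 842 reads across WT against 445, 441 and 330 across DM, with WT replicate 1 the highest after scaling (58.9 RPM against 41.9 and 36.8). Its log2 change was -1.25 (SE 0.19). The body of Mycn-202 held 902, 364 and 469 reads across WT against 246, 276 and 196 across DM, with a log2 change of -1.29 (SE 0.25). Its head held 88, 53 and 53 reads across WT against 34, 56 and 25 across DM, and there the groups overlapped, since DM replicate 2 exceeded WT replicate 3 in RPM. The Mycn-202 head log2 change was -0.81 (SE 0.34), which missed the threshold (adjusted p 0.10 by edgeR).

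Because the rows are nested, subtraction gives 4 consecutive windows of Mycn. The first, the Mycn-201 head, had the highest density, with 124 ± 13.8 RPKM in WT against 47.2 ± 8.63 in DM (SD, n = 3 libraries each). The 967 bp between the heads held 364, 216 and 320 reads across WT against 165, 109 and 109 across DM, or 15.2 ± 1.03 and 6.23 ± 1.08 RPKM. The window around the Mycn-202 start had 9.75 ± 2.41 RPKM in WT and 5.57 ± 2.48 in DM, between the densities of its neighbours on either side. The last window had 6.62 ± 2.36 RPKM in WT and 2.70 ± 0.474 in DM. Density thus fell from window to window in the mean of each group, and in 5 of the 6 libraries. In DM replicate 2 it rose from 5.58 RPKM between the heads to 8.39 at the Mycn-202 start, on 56 reads, and then dropped to 3.23. DM stood at 38.1%, 41.0%, 57.1% and 40.8% of WT from the first window to the last. Without WT replicate 1, whose last window was densest, the last value was 51.2%.

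**Figure D2:**
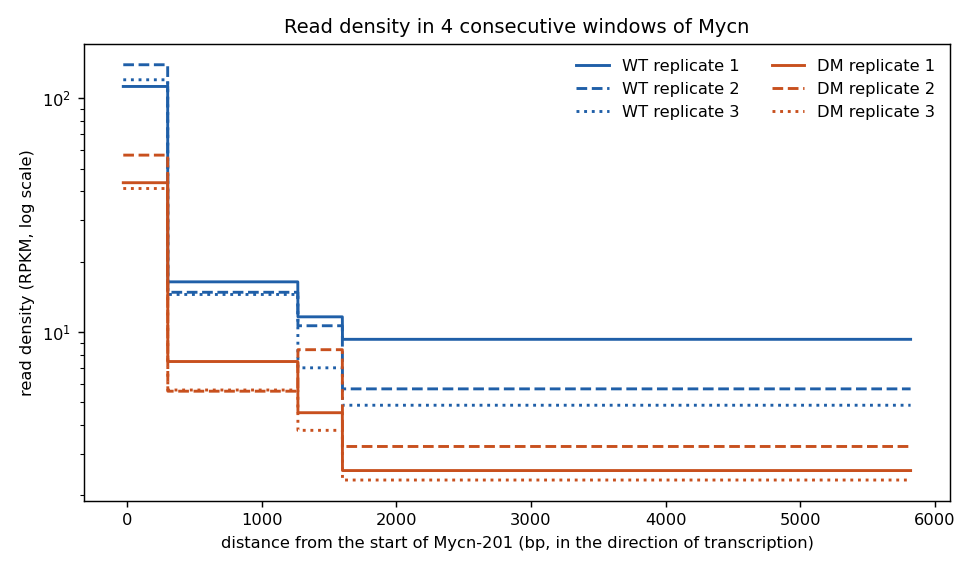
Read density of Mycn in RPKM, on a log scale, against distance from the start of Mycn-201 in 4 consecutive windows, 1 line per library. WT lines lie above DM lines in all windows but the third, around the Mycn-202 start, where DM replicate 2 (8.39 RPKM) exceeds WT replicate 3 (7.02 RPKM).

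The DNA before the starts of Msi2 and Mycn-201 is shown because these rows begin at the promoter ends of their genes, where the head windows were counted. Each stretch is 160 bases of the RefSeq promoter table (GRCm38.p6), written 5′ to 3′ on the gene's minus strand, and it ends upstream of every start known here for the gene. The Msi2 stretch is chr11:88718307-88718466 and the Mycn stretch is chr12:12941915-12942074. Capitals mark matches on either strand to CACGTG, the E-box bound by MYC-family dimers, or to GGGCGG, the GC box. The CACGTG match of Msi2 directly follows a GC box on the opposite strand, and they share no base.
Msi2: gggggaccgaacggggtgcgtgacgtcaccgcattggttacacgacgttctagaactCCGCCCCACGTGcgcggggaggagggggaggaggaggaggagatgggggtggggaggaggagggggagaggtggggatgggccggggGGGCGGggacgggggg
Mycn: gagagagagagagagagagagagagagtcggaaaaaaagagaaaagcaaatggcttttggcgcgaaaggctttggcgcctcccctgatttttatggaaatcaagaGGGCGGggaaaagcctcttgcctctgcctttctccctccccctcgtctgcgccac

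The Msi2 stretch has a GC content of 72.5% and the Mycn stretch 53.1%, against a mean of 54.6% over 32851 promoters of the table. For these promoters the 160 bases directly before each RefSeq start were taken. The Mycn stretch lies further upstream of its RefSeq start, because it ends before the start of Mycn-201. The bases between those starts were not searched. CACGTG was found once in the Msi2 stretch and not in that of Mycn, and 4.50% of the promoters hold it. GGGCGG was found in both stretches and in 29.3% of the promoters. TGACAG, TGATTNAT and TATAAA were also searched on both strands and not matched in these windows. TGACAG is a MEIS core and is found in 10.3% of promoters, TGATTNAT, a HOX and PBX composite, in 1.73%, and TATAAA in 8.01%.

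Read density per length ordered the genes differently in heads and bodies. In WT bodies, mean RPKM was 8.31 ± 2.10 for Mycn-201, 6.62 ± 2.36 for Mycn-202, 2.40 ± 0.445 for Meis1, 0.797 ± 0.134 for Msi2 and 0.397 ± 0.338 for Hoxa9 (SD, n = 3 each). The nested Mycn rows overlapped when compared across libraries, but within every library of both groups Mycn-201 was denser than Mycn-202. Msi2 and Hoxa9 did not differ beyond their spread, while Meis1 stood apart from its neighbours. In DM bodies the order was the same, with 3.49 ± 0.481, 2.70 ± 0.474, 1.08 ± 0.0354, 0.502 ± 0.0298 and 0.0402 ± 0.0120 RPKM. Here Hoxa9 lay clear of Msi2. In WT heads, Mycn-201 led with 124 RPKM, followed by Msi2 with 47.2 ± 23.0, Meis1 with 33.8 ± 6.36, Mycn-202 with 9.75 and Hoxa9 with 2.35 ± 1.45, and Msi2 and Meis1 did not differ beyond their spread. In DM heads that order was kept: 47.2 RPKM for Mycn-201, 25.5 ± 1.66 for Msi2, 16.1 ± 1.53 for Meis1, 5.57 for Mycn-202 and 0.573 ± 0.107 for Hoxa9. The Mycn-201 head was denser than the heads of 96.3% of all rows in WT and of 82.5% in DM.

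Setting the genes against each other within a library removes its total from the comparison. Of 6 pairs of genes compared by log2 ratio of body RPKM, Meis1 over Msi2 was 1.59 ± 0.178 in WT and 1.11 ± 0.0507 in DM, a change of -0.48 with no overlap. Msi2 over Mycn-201 was 0.58 higher in DM, also without overlap. Meis1 over Mycn-201 differed by 0.10 and overlapped (two-sided exact permutation p = 0.70). The 3 ratios with Hoxa9 over Meis1, Msi2 and Mycn-201 changed by -1.86, -2.34 and -1.77 from WT to DM and did not overlap. The 5 pairs without overlap each had an exact permutation p of 0.10, the smallest that 3 libraries against 3 can give, and 0.12 after Benjamini-Hochberg adjustment over the 6 pairs.

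Over the 2999 rows that passed the filter in bodies, 42.1% were lower in DM by edgeR's adjusted p, as were all 4 member rows tested, which adds nothing to the selection by the authors. The median body log2 change of these rows was 0.40, with 1720 rows higher and 1262 lower. TMM scaling, which assumes that most rows do not differ, shifted body log2 changes by a median of -0.22, and the split was then 1263 higher and 1277 lower. With DESeq2 it was 976 higher and 1300 lower. In heads, where 2846 rows were tested and the median log2 change was -0.11, 2 of the 4 member rows tested, Meis1-206 and Mycn-201, were lower, against 10.9% of all rows. Without overlap and with DM below, the heads of 3 of the 5 member rows (Hoxa9-202, Meis1-206 and Mycn-201) compare with 23.3% of all rows.

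In the authors' deposited table, where 43.0% of the rows held were lower in DM bodies, the body log2 fold changes were -3.35 for Hoxa9-202, -1.17 for Meis1-206, -0.69 for Msi2-203, -1.32 for Mycn-202 and -1.28 for Mycn-201. The percentile ranks in the authors' deposited table, which cover 13408 rows, place the head change of these rows at 1.39, 4.30, 7.58, 7.52 and 2.41 in the same order. Their body ranks in the authors' deposited table were 0.328, 1.02, 5.27, 0.664 and 0.746. A rank of 1 means that 1% of rows fell as far or further.

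**Figure D3:**
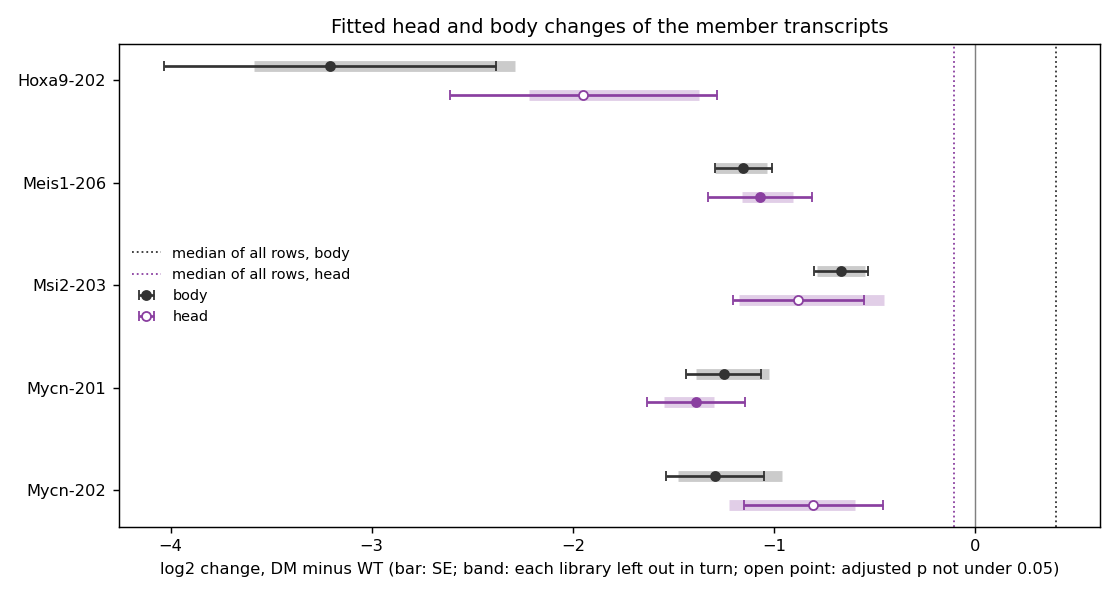
Fitted log2 change (DM minus WT) of bodies and heads for the 5 rows, with the SE as a bar and the range over fits that leave out each library in turn as a band, where filled points have an adjusted p under 0.05 and dotted lines mark the medians of all rows tested. All 10 points and bands lie below 0, and the heads of Meis1-206 and Mycn-201 are filled.

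The share of polymerase near the start did not change detectably for Meis1, Msi2 or Mycn-201, whose rows begin at or near a RefSeq start. The Hoxa9 row and the shorter Mycn row begin inside their genes, so their heads do not measure this share. Head reads per 100 body reads of Meis1 were 2.90, 3.66 and 3.51 for WT against 3.22, 3.55 and 3.83 for DM, and the groups overlapped. For Mycn-201 they were 62.9, 110 and 108 for WT against 73.7, 86.4 and 82.1 for DM, with all DM libraries inside the WT range. For Msi2 they were 2.43, 9.46 and 4.77 for WT against 4.27, 4.49 and 4.55 for DM. The DM values of Msi2 lay within a narrow band that the WT values spanned on both sides. Per length, the Msi2 head was 63.7 ± 41.1 times as dense as its body in WT and 50.9 times in DM.

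Tested as the interaction of window and group in edgeR, the head to body ratio changed by 0.08 (SE 0.25; adjusted p 0.90) for Meis1, -0.12 (SE 0.39; adjusted p 0.90) for Msi2, -0.17 (SE 0.28; adjusted p 0.78) for Mycn-201 and 0.42 (SE 0.30; adjusted p 0.48) for Mycn-202, on the log2 scale. Hoxa9, fitted with no filter, gave 1.14 (SE 0.85; adjusted p 0.52). Over all 2844 rows tested, 2 passed (0.0703%), both lower in DM, so the test called few rows of any kind. The median log2 change of the ratio was -0.25. Of 433 rows with an unadjusted p under 0.05 in edgeR, 381 were lower and 52 higher in DM. The library block does not absorb a shift of all heads against bodies within 1 library. WT replicate 2 held 23.7 head reads per 100 body reads over all genes. Without WT replicate 2, 27 rows were called higher and 63 lower in DM by adjusted p. With separate TMM factors for heads and bodies, 33 were called higher and 23 lower. Among the rows tested, 57.3% had a lower ratio change than Mycn-201, 61.7% than Msi2, 78.0% than Meis1 and 93.8% than Mycn-202. The rows were selected on body counts, the denominator of this ratio. The median, the split by direction and these ranks are not independent of that selection. With standard errors from 0.25 to 0.85, modest ratio changes were not detectable. For Msi2 the sign turned without WT replicate 2 (0.36, adjusted p 0.40), and for Meis1 without WT replicate 1 (-0.02, adjusted p 0.96).

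**Figure D4:**
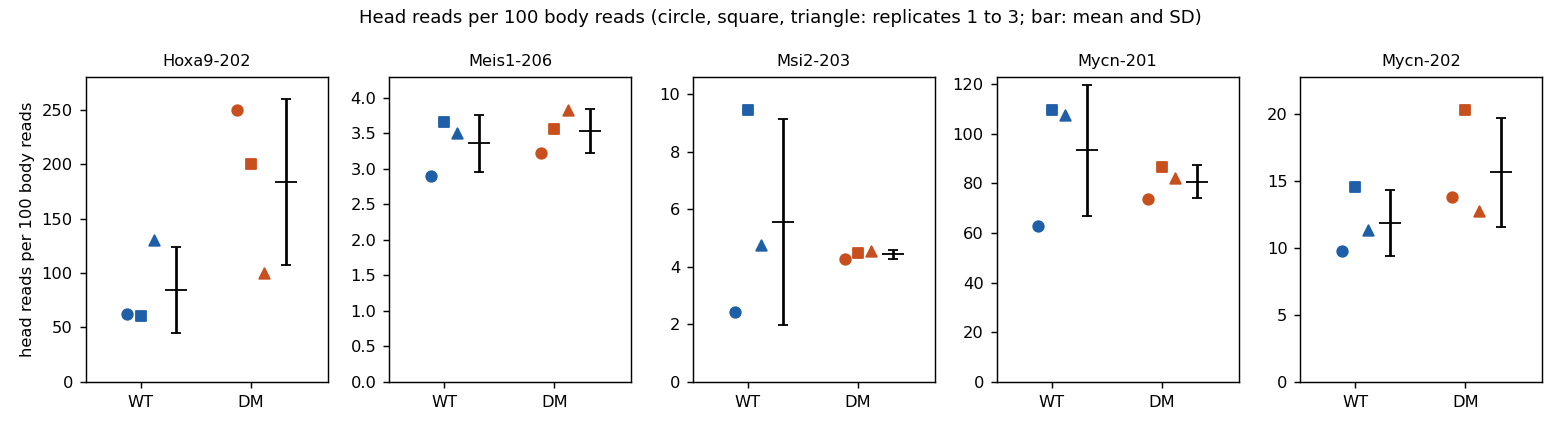
Head reads per 100 body reads for each member transcript, 1 point per library, with group mean and SD (n = 3). The groups overlap in all 5 panels, and the WT libraries of Msi2-203 spread from 2.43 to 9.46 while the DM libraries lie between 4.27 and 4.55.

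Other genes of the same families were examined through lists, of which the genes held in the table are given. Their body calls share the authors' selection of rows. Head counts did not enter that selection, but they come from the same genes and libraries, so the head calls are not independent of it. Over all 2721 genes tested in bodies, at 1 row per gene, 1562 were higher (57.4%), 1144 were lower (42.0%), and the median log2 change was 0.40. In heads 2579 genes were tested, of which 254 were higher (9.85%) and 283 lower (11.0%), with a median log2 change of -0.11. Of 11 HOXA cluster genes, Hoxa9 alone was among the rows, and the other 10 were not analysed here. Of 8 TALE homeodomain genes 4 were held, with 3 lower and 1 higher in DM bodies and a median log2 change of -1.20. Besides Meis1 the lower ones were Meis2, its close paralog (-1.49, SE 0.19), and Pbx4 (-1.25, SE 0.21). Pknox2 was higher (1.24, SE 0.13). In heads Pbx4 fell (-0.95, adjusted p 0.038 by edgeR) and Pknox2 rose (1.19, adjusted p 0.018), while Meis2 had -0.69 (adjusted p 0.31). Summed over the 3 TALE genes other than Meis1, body RPM was 108 to 124 in WT and 166 to 175 in DM. That rise came from Pknox2 alone (mean 63.7 RPM in WT and 150 in DM). Meis2 (40.1 and 14.3) and Pbx4 (12.6 and 5.32) fell.

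Of 13 genes of the MYC and MAX network, 5 were held, with 2 lower and 3 higher in bodies and a median log2 change of 0.46. Beside Mycn, the lower one was Mxd3 (-0.64, SE 0.20), which also fell in the head (-1.09, adjusted p 0.018 by edgeR). The higher ones were Mxd1 (0.65, SE 0.09), Mxi1 (0.76, SE 0.18) and Mlxip (0.46, SE 0.10), a partner of MLX. None of these 3 passed in heads, where Mxd1 had -0.16, Mxi1 0.40 and Mlxip -0.12. Of 13 RNA regulators of self-renewal, Msi2 and Igf2bp2 were held. Igf2bp2, an RNA-binding protein, was higher in bodies (0.50, SE 0.16) and had a head log2 change of 0.54 (adjusted p 0.52 by edgeR).

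Of 23 further MLL targets and stem cell regulators, 9 were held, with 5 lower, 3 higher and 1, Cdk6, past no threshold in bodies (-0.23, SE 0.11), and a median of -0.45. The lower ones by adjusted p were led by Myb (-0.88, SE 0.14), a factor required for definitive blood formation, Bcl2 (-0.45, SE 0.13), which blocks apoptosis, and Zfp521 (-0.45, SE 0.13). The higher ones were the RUNX factor Runx2 (0.73, SE 0.10), Zeb2 (0.52, SE 0.14) and Tcf4 (0.52, SE 0.16). In heads 3 of the 9 fell and 0 rose by edgeR's adjusted p, against 11.0% and 9.85% of all genes.

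**Figure D5:**
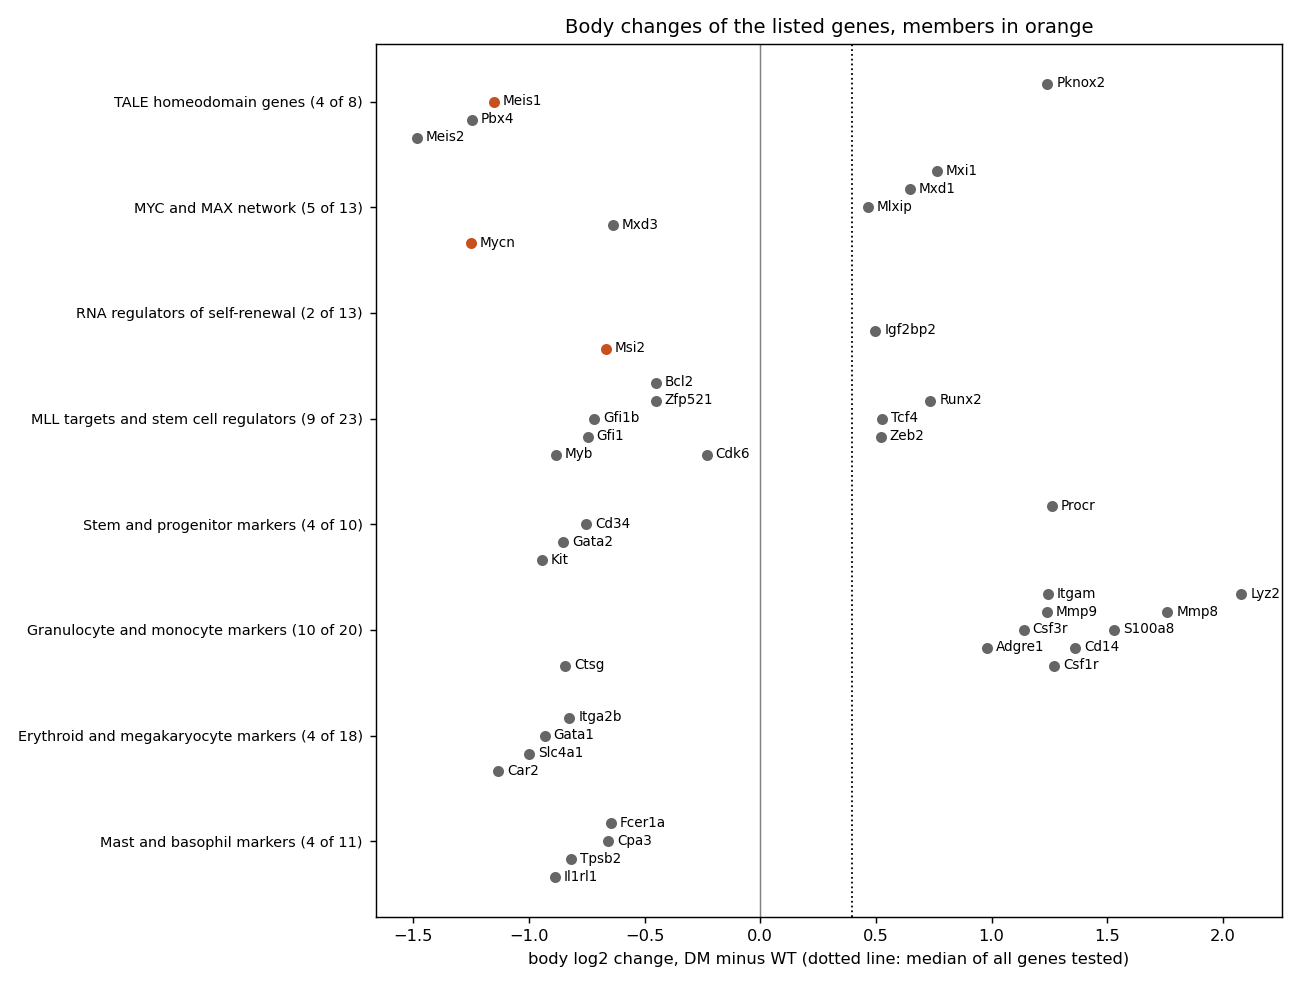
Body log2 change (DM minus WT) of the genes of each list that were held and tested, with 1 point per gene, members in orange and the median of all genes tested as a dotted line; numbers beside the list names are genes held of genes listed. Meis1, Mycn and Msi2 lie left of 0 together with most stem and progenitor, erythroid and mast cell markers, while granulocyte and monocyte markers lie to the right, apart from Ctsg.

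Markers of cell types moved with the groups, and their part in the values of the 4 genes was not tested. Of 20 granulocyte and monocyte markers, 10 were held, and 9 were higher and 1 lower in DM bodies, with a summed level of 300 to 374 RPM in WT and 768 to 865 in DM. Itgam (1.24, SE 0.09), Csf3r (1.14, SE 0.11) and Lyz2 (2.08, SE 0.22) led these, and Ctsg, a protease gene of early granulocytes, was the lower one (-0.85, SE 0.14). In heads 6 of the 9 tested rose and 0 fell, against 9.85% and 11.0% of all genes. Of 10 stem and progenitor markers 4 were held: Kit (-0.95, SE 0.14), Cd34 (-0.75, SE 0.19) and Gata2 (-0.85, SE 0.12) were lower and Procr (1.26, SE 0.35) was higher in bodies, and all 4 passed in heads in the same directions. Their sum was 2246 to 2855 RPM in WT and 1381 to 1440 in DM.

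All 4 held of 18 erythroid and megakaryocyte markers were lower in bodies, with sums of 197 to 223 RPM in WT and 107 to 125 in DM. They were Gata1 (-0.93), Slc4a1 (-0.999), Car2 (-1.13) and Itga2b (-0.83), of which Gata1 and Itga2b passed in heads. All 4 held of 11 mast cell and basophil markers were lower as well, with sums of 1447 to 2592 RPM in WT and 1108 to 1184 in DM. They were Cpa3 (-0.66), Fcer1a (-0.65), Il1rl1 (-0.89) and Tpsb2 (-0.82), of which Fcer1a and Tpsb2 passed in heads. None of the held markers was at 0 in the body of any library. None of 12 lymphoid markers was among the rows, and they were not analysed here. Among these lower markers, all of them rows selected by the authors' test, the largest body log2 change was that of Car2 (-1.13). Beside it stood -1.15 for Meis1 and -1.25 for Mycn-201, and Msi2 (-0.67) lay within the range of the markers. Hoxa9 (-3.21, fitted with no filter) lay outside that range.

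The genes most like each member across the 6 libraries were sought by the smallest root-mean-square difference between centred log2 values of body RPM plus 0.5, among genes with a mean of at least 50 body reads. For Meis1 they were Pcyt1b (0.080), Clnk (0.089), an adaptor of immune receptor signalling, and P4ha2 (0.090). For Msi2 they were Znrf3 (0.032), Man2a2 (0.042) and Tmem64 (0.052), and for Mycn they were H1f10 (0.093), a linker histone gene, Pbx4 (0.12) and Cadps2 (0.13). Znrf3, the closest of all, had 1629, 724 and 1335 body reads across WT against 821, 773 and 707 across DM, which repeats the order of the Msi2 libraries in WT. For Hoxa9 they were Wnt9a (0.22), Hmgb3 (0.26) and Abcb4 (0.26), each highest in WT replicate 2 like Hoxa9 itself. Their body log2 changes were -1.77, -0.97 and -1.04, smaller drops than the -3.21 of Hoxa9. The 0.5 RPM added exceeds the DM values of Hoxa9 (0.0876 to 0.150 RPM) and so flattens its drop in this measure. With 0.1 RPM added instead of 0.5, only 1 of those 3 remained for Hoxa9. These measures share the libraries and their totals, and they describe likeness over 6 points.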

How the data were processed

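PRO-seq reads of 3 WT and 3 DM libraries were used. The submitters' processing notes list Bowtie 1.1.2, bedtools 2.28, cutadapt, Trimmomatic and MACS2 and the builds mm10 and dm3, without saying which served this step. Raw counts per head and body window were deposited by the authors, as were library totals, whose counting is not given in the sources used here. Whether reads of the fly build dm3, such as a spike-in, entered these totals is not given either, and if they did, every RPM value and DM share of WT would be relative to them as well. RPKM values were deposited by the authors and equal count over window length and total. The authors' deposited mean signal is the mean of body counts over size factors, from which the factors were recovered. The deposited log2 fold changes and p-values belong to the authors' body comparison, which selected the rows (adjusted p under 0.05). The deposited percentile of each row is a score, its rank in percent by log2 change over 13408 rows, a number inferred from the percentiles. Treatment of strand and of multiply mapped reads is not given in the sources used here, so antisense or overlapping RNA could add reads; the RefSeq gene spans that overlap Meis1 (Gm16141) and Msi2 (Mir378b, Gm11510, 0610039H22Rik) were not separated.

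All 3022 rows entered the quasi-likelihood test of edgeR 4.0.16 (R 4.3.3 with limma 3.58.1), with deposited totals as library sizes, filterByExpr (minimum count 10, minimum total 15), group as the only term and Benjamini-Hochberg adjustment. Deposited totals replaced TMM because the rows had been selected by the comparison. Head to body ratios were tested by the interaction of window and group, with library as a block. The procedures were tested on simulated data. Alternatives were TMM, the authors' size factors, DESeq2 1.42.0, no filter, 1 row per gene, a replicate block, an adjusted p of 0.01 and each library left out. Hoxa9-202 did not pass the filter, so its fit has none, a choice made after seeing the data. Every member row is named. From each list all genes held are named where these are 6 or fewer, otherwise the 3 with the smallest adjusted p in each direction, and 3 genes most alike per member. The members and lists were chosen with earlier results of these data known. Some genes were taken out of the lists and are not reported here. Genes that stayed in a list but that the rule does not name still enter its counts, sums and medians. Coordinates are those of the file and were checked against GRCm38.p6 (mm10) starts and ends. Replicate body counts differed by more than sampling noise in all pairs. Chi-square per degree of freedom was 25.6 to 40.4 between WT libraries and 2.66 to 6.83 between DM libraries. The edgeR fits use the same dispersion for both groups.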

Additional observations from a re-analysis of the deposited data

How the results depend on the processing

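All 57 alternative values of the member bodies were negative and past the threshold, from -3.65 to -0.55 on the log2 scale, on rows selected for that difference. All 57 head values were negative, and 27 passed. Leaving out 1 library gave head log2 changes of -2.22 to -1.38 for Hoxa9-202, -1.16 to -0.90 for Meis1-206, -1.17 to -0.45 for Msi2-203, -1.22 to -0.60 for Mycn-202 and -1.55 to -1.30 for Mycn-201. Deviations of same-numbered libraries correlated at -0.09, -0.18 and 0.30 in bodies and at 0.12, 0.002 and 0.051 in heads. With 3 libraries per group, these correlations cannot settle whether the replicate numbers pair the libraries. With a replicate block the heads of Hoxa9-202 (-1.89, adjusted p 0.034 by edgeR), Msi2-203 (-0.77, 0.021) and Mycn-202 (-0.86, 0.033) passed. TMM scaling had the same effect on Hoxa9-202 (-1.80) and Msi2-203 (-0.73), and DESeq2 on Msi2-203 (-0.73). None of the 43 alternative ratio values of Meis1-206, Msi2-203 and the Mycn rows passed. With separate TMM factors for heads and bodies the ratio of Msi2-203 (0.19) and of Mycn-201 (0.15) changed sign, and leaving out 1 library gave -0.60 to 0.36 for Msi2-203 and -0.022 to 0.15 for Meis1-206. The cause was not tested. Rows called at an adjusted p of 0.01 numbered 1980 in bodies, 136 in heads and 0 in ratios, where the unadjusted count was 433. In heads 596 rows were called, against 1110 with TMM, 997 with DESeq2, 891 with the replicate block and 18 to 1054 with 1 library left out, the lowest without DM replicate 1. In ratios 2 rows were called, against 56 with separate TMM factors, 41 with DESeq2, 46 with the replicate block and 0 to 90 with 1 library left out. Depth limits Hoxa9 most, with 7 body reads in DM.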
